A study of Mus musculus and Homo sapiens with 30 samples.

Results

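Interferon-stimulated genes were followed in 2 mouse mammary cell lines through 39 listed members, which were taken by symbol from a table of 56980 mouse genes. The list was drawn up by name from known biology and not by a threshold on these measurements, but with earlier results of these data known. The E0771 cells derive from a mammary tumour of the mouse, and NMuMG cells from normal mouse mammary gland epithelium, although the sample labels list both under breast cancer. Each line grew for 36 h in DMEM with 10% fetal bovine serum and was then kept for 16 h in 1 of 3 media, with 3 libraries per line and medium. Control cells received standard growth medium. Treated cells received the secretome of fat cells from the inguinal depot, called lean or obese in the labels, which made up 50% of their medium. For NMuMG the labels add insulin (10 mcg/ml) and a glucose content of 4.5 g/L, in every group. The control medium held no secretome, so the 2 secretomes are matched for that share with each other and not with the control. No label says that the replicates came from separate cultures, so the p-values measure the spread between these samples, which may be technical. In such bulk RNA, fewer cells that express a gene and less RNA of it per cell cannot be told apart.

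Interferons are secreted proteins that bind receptors on the cell surface, and the JAK kinases at those receptors phosphorylate STAT proteins. The complex ISGF3, which holds STAT2 and IRF9, binds the interferon-stimulated response element (ISRE) in the promoters of a large set of genes, and a further interferon-responsive element is known as GAS. The products sense viral RNA, block its translation or replication, attach the ubiquitin-like protein ISG15 to other proteins, and load peptides on MHC class I molecules for display to T cells. Many of these genes also have a resting level that does not need added interferon.

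To show the element that defines this group, the promoter windows of RefSeq (GRCm38.p6, 250 bases before to 50 bases after the transcript start) were searched for the core GAAANNGAAA on both strands, with overlapping matches allowed. A window was at hand for 30 of the 39 members. The core was present in 13 of the 30 (43.3%), against 3.99% of all 27025 genes with a window and 3.44% of all 32851 windows of 300 bases. The GAS core TTCNNNGAA, which reads the same on both strands, was present in 7 of the 30 (23.3%), against 9.55% of genes. A match describes letters and not binding. Stretches of 150 bases that end at the base before the start are printed for 2 members that rose in E0771 with lean secretome (Ifit1 and Rsad2) and for Isg15, which did not pass the test. Sites of 30 bases are added for Ddx58 and Eif2ak2, which fell, and whose match lies just past the start. They run 5′ to 3′ on the strand of the gene, in the order Ifit1 (chr19:34640739-34640888, plus), Rsad2 (chr12:26456453-26456602, minus), Isg15 (chr4:156200819-156200968, minus), Ddx58 (chr4:40239804-40239833, minus) and Eif2ak2 (chr17:78882535-78882564, minus). Capitals mark the matches, where TTTCNNTTTC is the same core read on the other strand.
Ifit1: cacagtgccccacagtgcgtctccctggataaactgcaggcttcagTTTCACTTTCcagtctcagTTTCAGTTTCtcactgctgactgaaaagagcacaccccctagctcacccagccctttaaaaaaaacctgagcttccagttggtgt
Rsad2: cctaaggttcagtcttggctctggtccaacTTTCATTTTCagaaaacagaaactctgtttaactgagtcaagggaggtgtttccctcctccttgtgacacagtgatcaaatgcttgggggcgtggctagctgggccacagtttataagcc
Isg15: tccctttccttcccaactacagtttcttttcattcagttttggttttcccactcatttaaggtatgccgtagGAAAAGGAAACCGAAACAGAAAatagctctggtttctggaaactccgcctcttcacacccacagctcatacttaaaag
Ddx58: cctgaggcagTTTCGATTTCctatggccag
Eif2ak2: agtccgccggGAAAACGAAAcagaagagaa
The matches began 104 and 85 bases before the start in Ifit1, 120 before it in Rsad2 and 78 to 66 before it in Isg15 (3 overlapping matches). In Ddx58 and Eif2ak2 they lay 2 and 18 bases after the start. Bst2, which also fell and held the core, is not printed, and its matches lay before the start, as in Ifit1 and Rsad2. The side of the start on which a match lay thus did not separate members that rose from members that fell. The core was found both in members that rose and in members that fell in E0771 with lean secretome: 2 of the 4 that rose and have a window held it, as did 3 of the 12 that fell.

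Total counts ranged from 22929035 to 31094119 per library. The 39 members took 0.0927 to 0.0989% of the counts in the E0771 control libraries and 0.0522 to 0.0536% in the NMuMG control libraries. Epithelial markers were high in NMuMG, where the summed level of 7 epithelial genes lay between 7106 and 7522 CPM (counts of a gene scaled to a fixed library total) in control medium. In E0771 they went against a plain epithelial identity: Krt8 was present (249, 254 and 258 CPM), but Krt19 and Cldn3 had no count in any library, Cdh1 stayed at or below 0.290 CPM, and the fibroblast gene Col1a1, a collagen chain, read 638, 723 and 690 CPM. The summed level of 6 fibroblast markers in E0771 was 872 to 977 CPM in control medium, 333 to 371 with lean secretome and 641 to 868 with obese secretome. In NMuMG it was at most 6.29 CPM in control medium and 3.23 to 3.44 with lean secretome, and the epithelial sum was 7802 to 8081 CPM with lean secretome. With obese secretome the NMuMG fibroblast sum was 3.78 to 4.71 CPM and the epithelial sum 6718 to 7016, both below control. In E0771 the epithelial sum was 249 to 258 CPM in control, 243 to 247 with lean and 229 to 241 with obese secretome. Endothelial markers (4 genes) in E0771 summed to 3.503 to 4.47 CPM in control, 2.11 to 2.99 with lean and 3.26 to 5.62 with obese secretome, and in NMuMG to at most 0.408 CPM in any group. Except for the endothelial sum of NMuMG, whose groups overlapped, these sums moved with the lean medium, and the epithelial and fibroblast sums also with the obese medium; their part in the changes of the members was not tested. Leukocyte markers (10 genes) summed to 4.66 to 6.35 CPM in E0771 control libraries, 6.46 to 6.87 with lean and 4.99 to 5.60 with obese secretome, and Ptprc, which defines leukocytes, had no count in the controls. Adipocyte markers (10 genes) summed to 8.65 to 9.89, 9.48 to 12.4 and 8.68 to 9.52 CPM in the same order, nearly all of it Lipe, while Lep was at 0 in every library. In NMuMG the leukocyte sum was 4.07 to 4.44, 4.04 to 4.34 and 3.67 to 4.25 CPM, and the adipocyte sum was 29.0 to 31.3, 34.8 to 38.4 and 29.1 to 33.2 CPM, mostly Pparg and Lipe. With lean secretome the leukocyte sum of E0771 and the adipocyte sum of NMuMG thus also lay above all control libraries. Their part in the changes of the members was not tested either.

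Resting levels were compared first, since they decide which members could be tested. Between the control groups 29 of 38 members tested differed (76.3%), a share near that of all genes (80.5%). Of the 7 genes of antigen processing, 5 were higher in E0771 (37.1% of all genes were). Ifih1, Stat2, Irf1, Parp14 and Gbp2 were higher in NMuMG. Per kilobase of exon (mean control CPM divided by the length of the merged exons), B2m, the light chain of MHC class I, stood first in both lines with 159 CPM per kb in E0771 and 151 in NMuMG. In E0771 it was followed by Bst2, which tethers budding virus particles, with 127, and by the class I heavy chain H2-D1 with 113. The next member, Tap2, had 15.7 and Trim25 had 13.7. In NMuMG Bst2 (12.4), H2-D1 (11.5), the RNA-activated kinase gene Eif2ak2 (11.4), Irf1 (11.0) and Trim25 (10.2) lay close together after B2m. At the other end, Oas2, Mx2 and Ifi44 lay at or below 0.0507 CPM per kb in E0771, and Usp18, Rsad2 and Oas2 at or below 0.0504 in NMuMG.

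**Figure D1:**
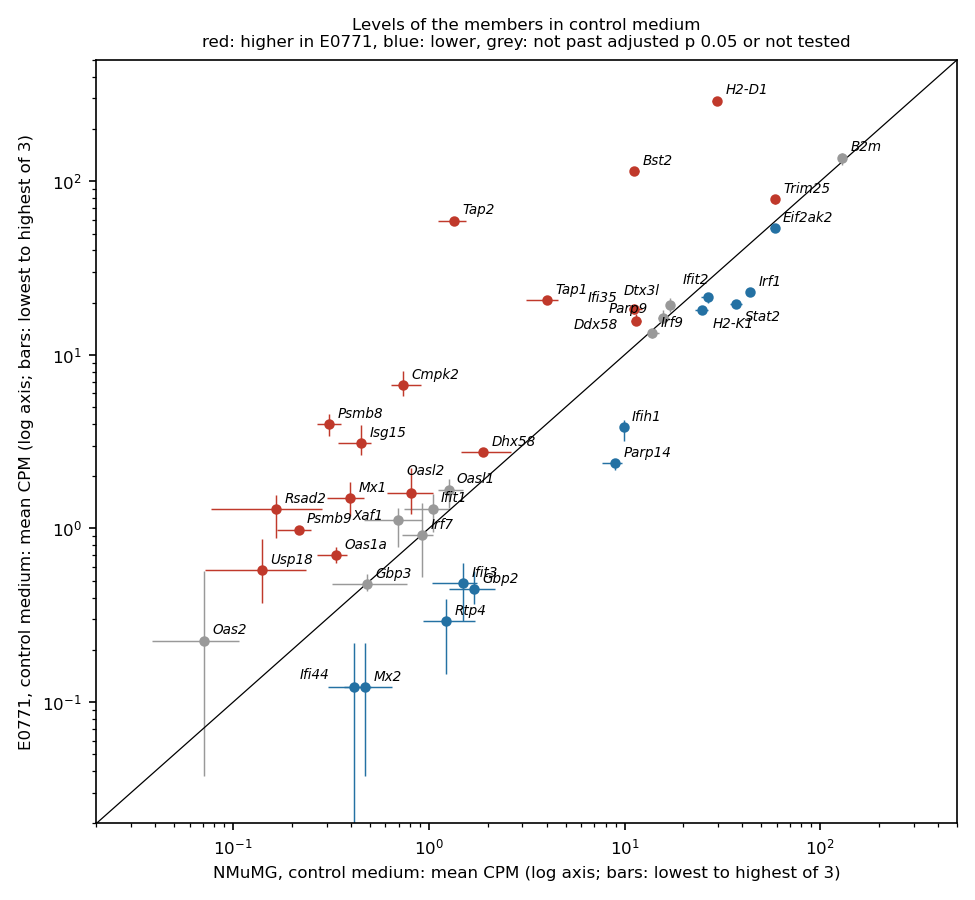
Mean CPM of the 39 members in control medium, NMuMG on the horizontal and E0771 on the vertical axis (both log axes), with bars from the lowest to the highest of 3 libraries and a line of equal level; a bar that reaches the lower edge goes to 0. Tap2 (59.3 against 1.35 CPM), Bst2, H2-D1 and Tap1 lie far above the line, and B2m lies on it.

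In 1 fit of all 18 libraries with edgeR's quasi-likelihood test and Benjamini-Hochberg adjustment over 16529 genes, 38 members were tested. Of these, 29 differed between the 2 control groups (80.5% of all genes did), 17 of them higher and 12 lower in E0771 (37.1% and 43.4% of all genes). Tap2, a subunit of the peptide transporter, read 60.1, 59.0 and 58.9 CPM in E0771 and 1.55, 1.38 and 1.11 in NMuMG, a log2 difference of 5.34 (SE 0.09, adjusted p = 7.2e-38). Its partner Tap1 was higher by 2.27 (SE 0.10) on the log2 scale, H2-D1 by 3.19 (SE 0.05), Psmb8, a catalytic subunit of the immunoproteasome, by 3.54 (SE 0.28) and Bst2 by 3.25 (SE 0.06). Isg15 and the mitochondrial nucleotide kinase gene Cmpk2 were higher by 2.64 and 3.05. The class I gene H2-K1 went the other way, with a log2 difference of -0.56 (SE 0.08). So did the RNA sensor gene Ifih1 (-1.47), the ISGF3 subunit gene Stat2 (-1.04), the factor gene Irf1 (-1.04), Parp14 (-2.01) and Gbp2 (-2.04). B2m did not pass the test, with 124, 141 and 146 CPM in E0771 and 128, 132 and 129 in NMuMG. The media of the lines differ in insulin and glucose, so line and medium cannot be told apart here. Reads of H2-K1 and H2-D1 can be shared with other class I genes of near-identical sequence, and those of Gbp2 and Gbp3 with other Gbp genes, so their counts are uncertain. The calls of Dhx58, Oas1a and Oasl2 were lost when single libraries were left out: for Dhx58 any control library but NMuMG replicate 2 (adjusted p up to 0.244; the difference was 0.43, and 0.74 without NMuMG replicate 2), for Oas1a E0771 replicate 3 or NMuMG replicate 1 (up to 0.0945), and for Oasl2 replicate 3 of either line (up to 0.152). Ifi44 was lost without E0771 replicate 2 (0.0569).

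Low counts kept some members out of the tests within each line. In E0771, Oas2, Mx2, Ifi44 and Rtp4 were not tested, with at most 13, 20, 6 and 10 counts in a library. In NMuMG, 6 members were not tested: Usp18, Oas1a, Oas2, Rsad2, Psmb8 and Psmb9, with at most 8, 11, 3, 8, 10 and 7 counts. Oas2 had 2, 1 and 13 counts in the E0771 control libraries, none in the 3 lean libraries, and 0, 0 and 2 in the obese libraries.

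Lean secretome was set against control medium next. In E0771 16 of the 21 members that passed the test fell, among them the RNA sensor gene Ddx58, the PARP9 and DTX3L complex genes and 5 genes of antigen processing. Of the direct antiviral effectors, Oasl1, Ifit1, Mx1 and Rsad2 each rose by 1.00 to 1.21 on the log2 scale from low levels. Of 35 members tested, 21 were called at an adjusted p under 0.05 (edgeR's quasi-likelihood test, Benjamini-Hochberg over 13813 genes), 5 higher and 16 lower. Of all genes tested, 56.3% were called (27.3% higher, 29.0% lower), so the share of members called, 60%, lay near the background, and their split was 14.3% higher and 45.7% lower. The median log2 fold change was -0.21 over the tested members and -0.01 over all genes. Lean and control libraries were fully separated in 25 of the 35 members, against 61.4% of all genes.

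**Figure D2:**
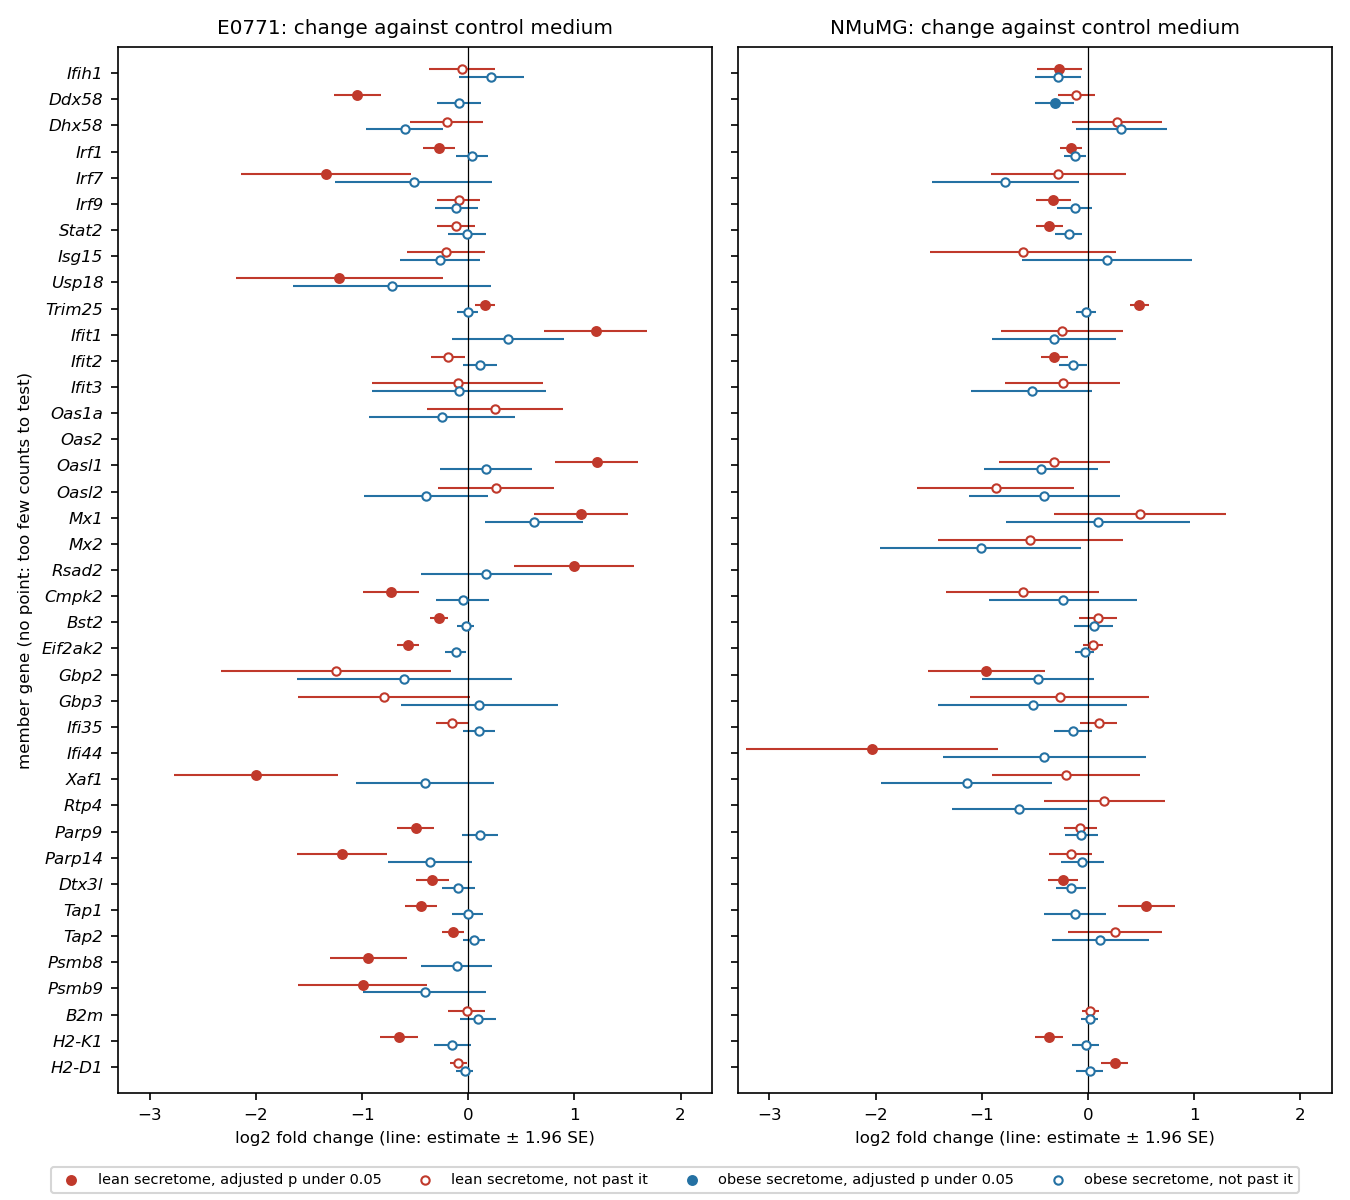
Log2 fold change of each tested member against control medium (point) with its 95% interval, for lean (red) and obese (blue) secretome, in E0771 (left) and NMuMG (right); filled points passed an adjusted p under 0.05. In E0771, 16 red points lie filled to the left of 0 and 5 to the right, and no blue point is filled.

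Among the sensors of viral RNA, Ddx58, which encodes RIG-I, had 14.8, 15.4 and 17.1 CPM in the E0771 control libraries, 9.27, 7.40 and 6.40 with lean secretome and 14.2, 16.5 and 13.8 with obese secretome. The lean libraries lay below all others. The log2 fold change against control was -1.05 (SE 0.11, adjusted p = 4.9e-08, edgeR). Ifih1, which encodes MDA5 and senses longer RNA, and Dhx58, which encodes their regulator LGP2, did not pass, with log2 fold changes of -0.06 and -0.20.

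Of the transcription factors, Irf1 fell by 0.28 on the log2 scale (SE 0.08, adjusted p = 0.0034, edgeR) and Irf7, which drives interferon gene transcription, by 1.34 (SE 0.41, adjusted p = 0.0073). Irf7 was scarce, with 0.839, 0.522 and 1.40 CPM in control and 0.358, 0.290 and 0.418 with lean secretome, and its call was lost without control replicate 3 (adjusted p = 0.091). The ISGF3 subunits Stat2 and Irf9 did not pass, with -0.12 (95% interval -0.30 to 0.06) and -0.09 (-0.29 to 0.11). Stat2 passed without lean replicate 3, with a fold change of -0.26 (adjusted p = 0.0061).

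In the ISG15 system, Isg15 itself did not pass. It had 2.66, 2.65 and 3.97 CPM in control, 2.90, 2.32 and 2.80 with lean and 2.75, 2.08 and 2.84 with obese secretome, and the groups overlapped. Trim25, a ubiquitin ligase that acts on RIG-I, rose from 74.3, 81.8 and 79.7 to 87.8, 84.5 and 92.8 CPM, which is 0.16 on the log2 scale (SE 0.05, adjusted p = 0.0079, edgeR). Without control replicate 1 this call was lost (adjusted p = 0.067). Usp18, the protease that removes ISG15, fell by 1.21 (SE 0.50, adjusted p = 0.041) from at most 0.872 CPM, a call lost when either of control replicates 1 and 3 or lean replicates 1 and 2 was left out (adjusted p from 0.0547 to 0.251).

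Of 15 direct antiviral effectors 13 were tested, and 4 rose (30.8%, against 27.3% of all genes) and 3 fell (23.1%, against 29.0%), shares near the background. Ifit1, which binds viral RNA that lacks the host cap pattern, had 0.949, 1.38 and 1.57 CPM in control, 3.04, 3.08 and 2.86 with lean secretome and 0.981, 1.65 and 2.38 with obese secretome. Every lean library lay above every other library, and the log2 fold change was 1.20 (SE 0.25, adjusted p = 0.00023, edgeR). Its gene lies beside near-identical relatives, so these counts are uncertain. Oasl1, a relative of the oligoadenylate synthetases, had 1.31, 1.79 and 1.92 CPM in control, 3.11, 4.50 and 4.05 with lean and 1.49, 1.97 and 2.16 with obese secretome. It again separated the lean libraries from the rest (log2 fold change 1.21, SE 0.20, adjusted p = 1.4e-05). Mx1, a gene of the MX GTPase family, and Rsad2, which encodes viperin, were singled out after their values were seen. Mx1 rose from 1.86, 1.45 and 1.18 to 2.65, 3.19 and 3.70 CPM (1.06, SE 0.23, adjusted p = 0.00028). Rsad2 rose from 0.876, 1.57 and 1.44 to 2.68, 2.32 and 2.77 CPM (1.00, SE 0.29, adjusted p = 0.006). In both, no lean library overlapped a control library. Oas1a and Oasl2 did not pass (0.25 and 0.26), nor did Ifit3 (-0.10), Gbp3 (-0.79) and Gbp2 (-1.24), although Gbp2 passed without lean replicate 1 (-2.07, adjusted p = 0.0129). Ifit2 did not pass either (-0.19), except without control replicate 1 (-0.25, adjusted p = 0.0235) or without lean replicate 1 (-0.29, adjusted p = 0.0049).

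Per kilobase, the 3 effectors that fell stood above the 4 that rose in control medium, from 1.61 CPM per kb (Cmpk2) to 127 (Bst2) against 0.298 (Rsad2) to 0.642 (Oasl1). These effectors were grouped by their calls. Not all scarce members rose: outside this class, Irf7, Usp18 and Xaf1 fell. Eif2ak2, which encodes the kinase PKR that stops translation on double-stranded RNA, had 54.1, 53.8 and 52.6 CPM in control, 36.1, 37.0 and 36.1 with lean and 48.6, 51.5 and 48.5 with obese secretome. The 3 groups did not overlap, and the log2 fold change of lean against control was -0.57 (SE 0.05, adjusted p = 1.9e-09, edgeR). Cmpk2 had 5.80, 6.23 and 8.07 CPM in control, 4.44, 3.92 and 3.79 with lean and 6.59, 6.37 and 6.38 with obese secretome. Its lean libraries lay below all others (-0.73, SE 0.13, adjusted p = 5.6e-05). Bst2 fell from 114, 113 and 117 to 98.0, 93.1 and 95.4 CPM (-0.28, SE 0.04, adjusted p = 4.7e-06). Among the other induced genes, Xaf1, a gene linked to apoptosis that was singled out after its values were seen, had 1.31, 0.783 and 1.26 CPM in control and 0.429, 0.181 and 0.225 with lean secretome. It fell by 2.00 on the log2 scale (SE 0.39, adjusted p = 0.00012), and Ifi35 did not pass (-0.15).

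Parp9, Dtx3l and Parp14 encode ADP-ribosyltransferases and a ubiquitin ligase linked to interferon signalling. All 3 fell in E0771, where 29.0% of all genes were lower. Parp9 went from 15.3, 15.9 and 18.0 to 11.6, 12.9 and 10.7 CPM (log2 fold change -0.50, SE 0.09, adjusted p = 3.9e-05, edgeR), Dtx3l fell by 0.34 (SE 0.08) and Parp14 by 1.19 (SE 0.22). The 3 genes neighbour each other in the RefSeq annotation.

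In antigen processing, 5 of 7 members fell and none rose, where 29.0% of all genes fell and 27.3% rose. H2-K1 had 17.9, 18.8 and 17.9 CPM in control, 12.9, 11.6 and 10.6 with lean and 14.4, 17.0 and 17.9 with obese secretome. The lean libraries were the lowest (-0.65, SE 0.09, adjusted p = 1.2e-06, edgeR). Tap1 went from 20.5, 21.5 and 20.0 to 16.1, 15.7 and 14.2 CPM (-0.45, SE 0.08), and the immunoproteasome genes Psmb8 and Psmb9 fell by 0.94 (SE 0.18) and 1.00 (SE 0.31). Tap2 fell by 0.14 (SE 0.05, adjusted p = 0.026), a call lost without control replicate 1 or 3 or lean replicate 3 (adjusted p from 0.0613 to 0.14). Psmb9, Tap1, Psmb8 and Tap2 are neighbours in that order. B2m had a log2 fold change of -0.02 (95% interval -0.19 to 0.16), and H2-D1, with 113 CPM per kb in control medium against 6.19 for H2-K1, one of -0.09 (SE 0.04), which did not pass (adjusted p = 0.055) but passed without control replicate 1 (0.0445) or lean replicate 2 (0.0428).

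**Figure D3:**
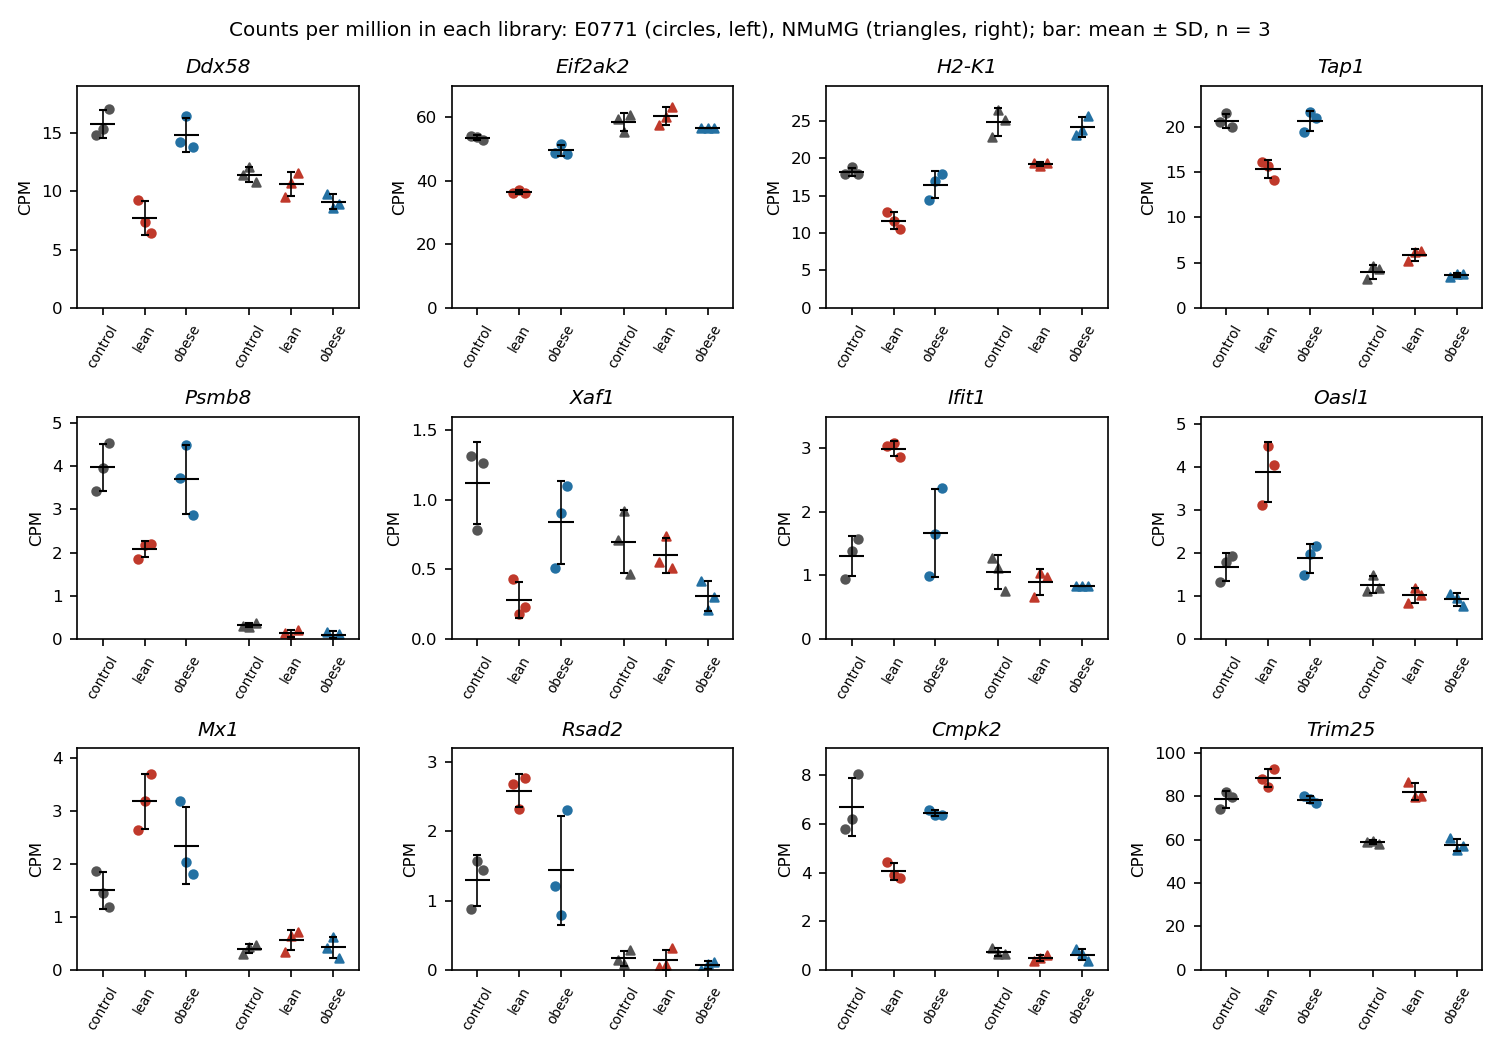
CPM of 12 members in each of the 18 libraries (linear axes from 0), E0771 as circles at the left and NMuMG as triangles at the right of each panel, with the mean and SD of 3. In E0771 the lean libraries lie below the controls in Ddx58, Eif2ak2, H2-K1, Tap1, Psmb8, Xaf1 and Cmpk2 and above them in Ifit1, Oasl1, Mx1, Rsad2 and Trim25.

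In NMuMG with lean secretome the ISGF3 subunit genes Stat2 and Irf9 fell, the transporter gene Tap1 and the class I gene H2-D1 rose, and H2-K1 fell. Of 33 members tested, 12 were called, 3 higher and 9 lower, while 38.2% of all 15014 genes were called (19.1% higher, 19.1% lower). The median log2 fold change was -0.23 over the tested members and close to 0 over all genes. The lean and control libraries did not overlap in 13 of the 33 members, against 48.0% of all genes. Trim25 had 59.2, 59.6 and 58.0 CPM in control, 86.7, 79.6 and 80.4 with lean and 60.7, 55.1 and 57.2 with obese secretome. The lean libraries lay well above the rest (0.48, SE 0.05, adjusted p = 1.5e-10, edgeR). Tap1 had 3.13, 4.60 and 4.29 CPM in control, 5.13, 6.15 and 6.26 with lean and 3.42, 3.76 and 3.70 with obese secretome, and again the lean libraries did not overlap the others (0.55, SE 0.14, adjusted p = 0.0016). H2-D1 rose from 28.1, 31.1 and 29.7 to 32.9, 33.9 and 38.9 CPM (0.25, SE 0.06, adjusted p = 0.002).

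The members that fell in NMuMG included the ISGF3 subunit genes Stat2 and Irf9. Stat2 had 34.7, 39.8 and 37.3 CPM in control, 28.3, 26.2 and 32.2 with lean and 30.2, 34.2 and 32.9 with obese secretome (lean against control -0.36, SE 0.07, adjusted p = 3.8e-05, edgeR). Irf9 had 13.4, 13.3 and 14.9 CPM in control, 10.7, 11.6 and 10.8 with lean and 11.8, 13.9 and 12.2 with obese secretome (-0.33, SE 0.08, adjusted p = 0.0021). In both genes the lean libraries lay below the controls, and in Stat2 the lean and obese libraries overlapped. H2-K1 went from 22.9, 26.5 and 25.2 to 19.3, 19.0 and 19.4 CPM (-0.36, SE 0.07, adjusted p = 3.7e-05). Ifit2, an RNA-binding effector, went from 27.9, 24.5 and 27.8 to 22.1, 21.1 and 21.1 CPM (-0.31, SE 0.07, adjusted p = 0.00028). Neither overlapped its control libraries. The scarce Ifi44 fell from 15, 8 and 12 counts to 3, 4 and 1 (-2.03, SE 0.60, adjusted p = 0.0071), a gene singled out after its values were seen.

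The remaining 4 calls in NMuMG, all decreases, depended on single libraries. Gbp2, a GTPase of cell-autonomous defence, had a log2 fold change of -0.96 and Dtx3l one of -0.23, and both were lost without control replicate 3 or lean replicate 1 (adjusted p from 0.0539 to 0.0695). Ifih1 (-0.27, adjusted p = 0.047 with edgeR) was lost without any 1 of the control libraries or lean replicate 1 (0.082 to 0.328). Irf1 (-0.16, adjusted p = 0.015) was lost without control replicate 2 or lean replicate 1 or 2 (0.0713 to 0.0901), and it was the single called member whose groups overlapped. Ddx58, Eif2ak2, Bst2, Parp9 and Parp14, which fell in E0771, did not pass in NMuMG, with log2 fold changes of -0.11, 0.05, 0.09, -0.07 and -0.16. Isg15 did not pass, with -0.61 (95% interval -1.48 to 0.26) from at most 16 counts in a library. Oasl2 did not pass (-0.87, adjusted p = 0.067) except without lean replicate 1 (-1.15, adjusted p = 0.0491).

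Whether the lean response differed between the lines was tested as an interaction in the fit of all 18 libraries. It passed for 12 of 38 members (34.5% of all genes), 3 with a higher and 9 with a lower response in E0771. Oasl1 and Ifit1 rose in E0771 and had log2 fold changes of -0.32 and -0.24 in NMuMG, where neither passed. The difference was 1.55 (SE 0.32, adjusted p = 0.00015, edgeR) for Oasl1 and 1.47 (SE 0.38, adjusted p = 0.002) for Ifit1. In NMuMG, Oasl1 had 1.11, 1.49 and 1.18 CPM in control and 0.826, 1.19 and 1.02 with lean secretome, and Ifit1 had 1.28, 1.11 and 0.751 and then 0.654, 1.04 and 0.978, so the groups overlapped in both. Tap1 was called in opposite directions, lower in E0771 and higher in NMuMG, with a difference of -0.97 (SE 0.15, adjusted p = 1.5e-06). Eif2ak2 had 59.3, 55.3 and 60.7 CPM in NMuMG control and 57.6, 60.2 and 63.2 with lean secretome, against its decrease in E0771 (difference -0.59, SE 0.07, adjusted p = 6.3e-09). Ddx58 differed by -0.91 (SE 0.15), Xaf1 by -1.77 (SE 0.54), Parp14 by -1.002 (SE 0.22), Parp9 by -0.40 (SE 0.12), Bst2 by -0.34 (SE 0.09) and H2-D1 by -0.32 (SE 0.07). Trim25 rose in both lines, and the response in E0771 minus that in NMuMG was -0.30 (SE 0.07). Mx2 differed by 2.29 (SE 0.75, adjusted p = 0.015) on at most 20 counts in a library, and was lost without E0771 control replicate 2, E0771 lean replicate 3 or NMuMG control replicate 2 (0.0569 to 0.108). Over the 30 members tested in both lines, 19 had the same sign of change (63.3%, against 60.8% of all genes tested in both), and 5 were called in both (16.7%, against 26.2% of all genes): Trim25 higher, H2-K1, Irf1 and Dtx3l lower, and Tap1 in opposite directions.

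**Figure D4:**
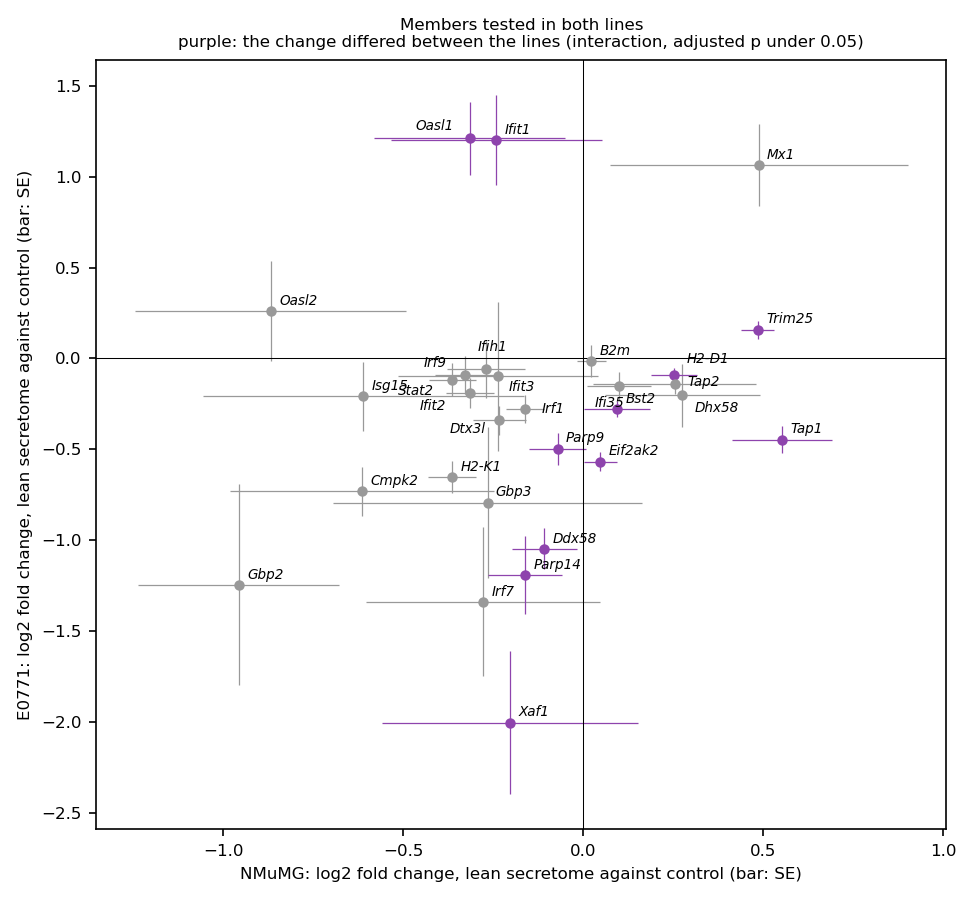
Log2 fold change of lean secretome against control in NMuMG (horizontal) and E0771 (vertical) for the 30 members tested in both lines, with 1 SE as bars; purple marks members whose response differed between the lines. Oasl1 and Ifit1 lie at the upper left, Tap1 at the lower right and Trim25 at the upper right; Mx2 is not drawn because it was not tested in E0771 alone.

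Few of these genes were called with obese secretome against control, a comparison that shares its control libraries with that of lean secretome. In E0771 none of the 35 members was called by edgeR's quasi-likelihood test (2.61% of all genes were), and DESeq2 called 0. An unadjusted p under 0.05 was reached by 3 of the 35 (Dhx58, Mx1 and Eif2ak2), against 2130 of all 13813 genes. The fold changes lay between -0.72 and 0.62 on the log2 scale, with a median of -0.05. Dhx58 had 2.77, 2.61 and 2.88 CPM in control and 1.81, 1.85 and 1.81 with obese secretome, groups that did not overlap (-0.60, SE 0.18, adjusted p = 0.089). Intervals for the genes that moved with lean secretome were -0.30 to 0.12 for Ddx58, -0.15 to 0.91 for Ifit1, -0.26 to 0.60 for Oasl1, -0.22 to -0.02 for Eif2ak2 and -0.15 to 0.14 for Tap1. Obese and control libraries were fully separated in 6 of the 35 members, against 21.5% of all genes.

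In NMuMG, 1 of 33 members was called with obese secretome (5.01% of all genes were, 2.34% higher and 2.66% lower). Ddx58 had 11.4, 12.1 and 10.8 CPM in control, 9.53, 10.8 and 11.5 with lean and 9.81, 8.59 and 8.91 with obese secretome. The obese libraries lay below the controls (-0.31, SE 0.09, adjusted p = 0.044, edgeR). This call was lost when any control library or obese replicate 2 or 3 was left out (adjusted p from 0.0538 to 0.182), and DESeq2 did not make it (0.0769). Another 8 members had an unadjusted p under 0.05 and a negative fold change: Ifih1, Irf1, Irf7, Stat2, Ifit2, Mx2, Xaf1 and Dtx3l. With Ddx58 these made 9 of 33 members under that limit, against 2489 of all 15014 genes. The median was -0.14, and libraries were fully separated in 9 of the 33, against 21.3% of all genes. The interaction of line and obese secretome was called in 0 of 38 members by edgeR (1.69% of all genes) and in 0 by DESeq2. An unadjusted p under 0.05 was reached by 5 of the 38, against 2176 of all 16529 genes. Dhx58 passed without NMuMG control replicate 2 (-1.21, adjusted p = 0.0272, edgeR).

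The comparison of lean with obese secretome, in which both media hold the same share of secretome, gave 19 called of 35 members in E0771, 4 higher and 15 lower with lean (52.7% of all genes were called, 25.8% higher and 26.9% lower). The median was -0.26 over the members and 0.00 over all genes, and 23 of the 35 did not overlap (60.3% of all genes). These tests use the same lean libraries as the comparison with control. Oasl1 was higher by 1.04 (SE 0.20, adjusted p = 7.8e-05, edgeR), Ifit1 by 0.82 (SE 0.24), Rsad2 by 0.83 (SE 0.28) and Trim25 by 0.16 (SE 0.05). Ddx58 was lower, by -0.96 (SE 0.11), as were Eif2ak2 (-0.45, SE 0.05), Cmpk2 (-0.68, SE 0.13), H2-K1 (-0.50, SE 0.09), Parp9 (-0.60, SE 0.09) and Psmb8 (-0.83, SE 0.18). Ifit2 (-0.30) and Ifi35 (-0.26) were also lower. Mx1, at 3.18, 2.04 and 1.81 CPM with obese secretome, did not pass (0.44, adjusted p = 0.082) except without lean replicate 1 (0.0466) or obese replicate 1 (0.01). Rsad2 was lost without lean replicate 1 or 3 or obese replicate 1 or 2 (adjusted p from 0.0519 to 0.102), with a fold change of 0.54 without obese replicate 2 and 1.36 without obese replicate 3. Ifi35 and Dtx3l were lost without obese replicate 3 (0.057 and 0.0663).

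In NMuMG this comparison called 6 of 33 members (35.0% of all genes, 17.6% higher and 17.4% lower), with Tap1 (0.67, SE 0.14), Trim25 (0.50, SE 0.05), H2-D1 (0.23, SE 0.06) and Ifi35 (0.24, SE 0.09) higher and H2-K1 (-0.34, SE 0.07) and Stat2 (-0.18, SE 0.07) lower with lean secretome. H2-D1 was lost without lean replicate 3 (adjusted p = 0.0594), Ifi35 without any 1 library but obese replicate 1 (up to 0.194), and Stat2 without lean replicate 1 or 2 or obese replicate 2 or 3 (up to 0.198, with a fold change of -0.12 without lean replicate 2). The count rose to 11 when obese replicate 1 was left out. Libraries of the 2 media were fully separated in 10 of the 33 (45.2% of all genes). As an interaction, lean against obese differed between the lines in 12 of 38 members (34.2% of all genes), 1 higher and 11 lower in E0771.

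Other genes of the interferon pathway were taken from a list of 111, chosen by role. The interferon genes themselves were at or near 0 counts: none of 10 ligand genes passed the filter, 9 of them had no count in any E0771 library and 8 none in any NMuMG library, and no library held more than 4 counts of one. In E0771 77 of the 111 were tested with lean secretome against control, and 15 were higher (19.5%, against 27.3% of all genes) and 37 lower (48.1%, against 29.0%), with a median of -0.16. In NMuMG 79 were tested, and 21 were higher (26.6%) and 12 lower (15.2%), against 19.1% of all genes in each direction, with a median of 0.04. The share called there, 41.8%, lay near the 38.2% of all genes. Of the receptor genes, Ifnar2 was higher in E0771 (0.26), the only one of 5 tested that was called there, and Ifngr1 was higher (0.31), Il10rb higher (0.19) and Ifngr2 lower (-0.33) in NMuMG, of 6 tested. Socs1, which inhibits the JAK kinases, rose by 0.41 (SE 0.09) in E0771 and by 1.01 (SE 0.16) in NMuMG, where it went from 2.29, 2.26 and 3.32 to 5.40, 5.52 and 4.93 CPM. It was the largest increase among the 6 negative regulators tested. Of these, 2 were higher and 2 lower in E0771, with log2 fold changes from -0.77 to 0.41. In NMuMG 2 were higher and 1 lower. Of all genes, 27.3% were higher and 29.0% lower in E0771, and 19.1% each way in NMuMG.

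Upstream of the ligands, 6 sensing and signalling genes were higher and 3 lower in E0771, of 11 tested, where 27.3% of all genes were higher and 29.0% lower. Cgas, the sensor of cytosolic DNA, rose from 8.94, 9.69 and 9.38 to 15.2, 12.7 and 15.4 CPM (Mb21d1 in older naming, 0.62, SE 0.10, adjusted p = 5.8e-06, edgeR). Ikbke, a kinase that activates interferon regulatory factors, fell in E0771 (-0.93, SE 0.17) and rose in NMuMG (0.66, SE 0.06). In that line 4 genes of this group were higher and none lower, of 11 tested, where 19.1% of all genes were called in each direction. Among the other induced genes of E0771, 19 of 34 tested were lower and 3 higher, against the same 29.0% and 27.3% of all genes. Uba7, the E1 enzyme of ISG15 conjugation, fell from 1.06, 1.04 and 0.741 to 0.215, 0.326 and 0.322 CPM (-1.72, SE 0.35), and Rnf213, a large ubiquitin ligase, from 237, 238 and 195 to 109, 115 and 112 CPM (-1.01, SE 0.11). Ifi27l2a fell by 1.24 (SE 0.47), a call lost when any 1 of the control replicates 2 and 3 and the lean replicates 1 and 2 was left out (adjusted p from 0.0672 to 0.15), while the fold change without lean replicate 3 was -1.89. Cd274, which encodes the checkpoint ligand PD-L1, was higher (0.87, SE 0.24). Slfn2 was also higher (1.04, SE 0.44, adjusted p = 0.048), a call lost without control replicate 1 or 3 or any 1 of the lean libraries (0.0846 to 0.14). In NMuMG 9 of 34 such genes were higher and 4 lower, against 19.1% of all genes in each direction, among them Oas3 (2.28, SE 0.49, from at most 0.337 CPM in control) and Herc6 (-0.40, SE 0.12). The factor gene Irf5 (-0.58, SE 0.19) and the class I gene H2-Q4 (-0.43, SE 0.11), whose reads can also be shared with near-identical genes, fell there too. Herc6 was lost without control replicate 1 (adjusted p = 0.0991), and Irf5 without control replicate 1 or lean replicate 2 (0.0651 and 0.108). 

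With obese secretome against control, 1 of these 77 pathway genes was higher and 1 lower in E0771, and 1 of 79 was higher and 4 lower in NMuMG. These shares, 2.60% and 6.33%, lay near those of all genes, 2.61% and 5.01%. In E0771 Calr, a chaperone of MHC class I loading, rose (0.15), a call lost without control replicate 2 or obese replicate 3 (adjusted p of 0.0769 and 0.104), and the coactivator gene Helz2 fell (-0.28), a call lost without control replicate 1 or 2 or any 1 of the obese libraries (0.0529 to 0.322). In NMuMG Stat3 (-0.23) and Irgm1 (-0.18) fell, and so did Uba7 (-0.52), which was lost without control replicate 2 (0.0653). Tapbp, which encodes the class I chaperone tapasin, fell (-0.19) and Plscr1 rose (0.12), and each was lost in 5 of 6 fits that left out a library; these calls held without obese replicate 1 (Tapbp) and without control replicate 3 (Plscr1).

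Neighbouring members did not always move together. Rsad2 and Cmpk2 are adjacent in the RefSeq annotation, and in E0771 with lean secretome the first rose by 1.00 and the second fell by 0.73 on the log2 scale. Oasl1 rose by 1.21 while its neighbour Oasl2 had 0.26 and did not pass. The strand setting of the counting is not given in the sources used here, so reads from overlapping genes cannot be assigned with certainty.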

How the data were processed

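Poly(A) RNA of 18 mouse libraries (9 E0771, 9 NMuMG) was prepared with a directional kit and sequenced in pairs of 150 bases, per the labels' protocols. The authors deposited raw counts per Ensembl gene ID. The submitters' processing notes name cutadapt 1.16, STAR 2.7.9a, featureCounts 1.6.3 and the build GRCm39; the annotation release and the strand setting are not given in the sources used here. The human SkBr3 table was not used. Symbols came from GENCODE M21 on GRCm38, for names and exon lengths only, and matched 52073 of 56980 IDs, with all 39 members among them; the listed name Mb21d1 was matched as Cgas. Promoter sequences and gene order are from RefSeq (GRCm38.p6).

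Each line was fitted alone with its 3 media, and both together with 6 groups, in edgeR 4.0.16 under R 4.3.3: filterByExpr, TMM factors (0.987 to 1.01 by line, 0.949 to 1.05 together), robust quasi-likelihood F tests, and Benjamini-Hochberg adjustment over all genes tested (13813 in E0771, 15014 in NMuMG, 16529 together). Calls were made at an adjusted p under 0.05. CPM are counts per library total, and 95% intervals are normal intervals from the SE. The counts carry no molecular identifiers, so precision covers counting error and the spread of 3 replicates. Between replicate pairs the chi-square over its degrees of freedom was 2.22 to 7.71, above counting error in each pair, and the biological coefficient of variation was 0.0468 in E0771 and 0.0388 in NMuMG.

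Per-library values were given for the called members whose mean log2 CPM reached 2 among the 4 largest increases and 4 largest decreases with lean secretome, for those called with obese secretome, and for up to 4 with opposite signs and a called interaction; of the other pathway genes, the 3 largest changes each way were named. Other genes, where singled out, were chosen after their values were seen. 1 pathway gene is not reported here. The members, lists and rules were chosen with earlier results of these data known. On simulated counts with 13813 genes, 65% of changes of 1.5-fold and 78% of 2-fold were recovered for E0771. With 15014 genes 70% and 81% were recovered for NMuMG, and 10.6% and 9.04% of the calls were false. Only 100 genes were changed at each fold, in the lean group, while 56.3% and 38.2% of all genes were called in the real comparison of lean with control. Recovery and false share depend on that fraction, so these rates do not apply to the real calls. Alternatives were DESeq2 1.42.0, its size factors in edgeR, other filters and thresholds, a replicate block and leaving out each library; leaving out libraries in the comparisons between lines was added after seeing the data.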

Additional observations from a re-analysis of the deposited data

Results flagged for a closer look

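The response to lean secretome differed between E0771 and NMuMG in 12 of 38 members against control and in 12 of 38 against obese secretome. Each was tested by the interaction term of the fit over 18 libraries (edgeR, adjusted p under 0.05). The share of members, 31.6% in both, lay near that of all genes, 34.5% and 34.2%. The lean libraries enter both comparisons. Values are the log2 fold change in E0771 minus that in NMuMG.

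Against control medium the difference was 2.29 for Mx2, 1.55 for Oasl1 and 1.47 for Ifit1. It was -1.77 for Xaf1, -1.002 for Parp14, -0.97 for Tap1, -0.91 for Ddx58, -0.59 for Eif2ak2, -0.40 for Parp9, -0.34 for Bst2, -0.32 for H2-D1 and -0.30 for Trim25. Of these, Mx2 rests on at most 20 counts in a library.

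Against obese secretome the difference was 0.93 for Oasl1. It was -2.52 for Xaf1, -1.15 for Ddx58, -1.09 for Tap1, -0.70 for Parp14, -0.58 for Parp9, -0.51 for Eif2ak2, -0.48 for Ifi35, -0.32 for Trim25, -0.27 for Bst2, -0.27 for H2-D1 and -0.25 for Irf1. The calls of Irf1 and Oasl1 held in 9 and 10 of 16 alternatives, with adjusted p up to 0.187 and 0.0909, and those of Bst2 and Parp14 in 14 of 16. Bst2 was lost without NMuMG lean replicate 3 or obese replicate 2 (0.107 and 0.103), and Parp14 without E0771 lean replicate 1 or obese replicate 3 (0.0572 and 0.0533). Irf1 was lost without E0771 lean replicate 2, any E0771 obese library, NMuMG lean replicate 3, or NMuMG obese replicate 1 or 2. Oasl1 was lost without E0771 lean replicate 2, E0771 obese replicate 1, NMuMG lean replicate 1 or 3, or NMuMG obese replicate 1 or 2. Members not called here that passed under at least 1 alternative were Stat2, H2-K1, Oasl2, Irf9, Usp18, Dhx58 and Rsad2 against control, and Ifit1, Oasl2 and Irf7 against obese secretome.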

How the results depend on the processing

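No member or named pathway gene changed the direction of a called difference under any alternative. With lean secretome against control, leaving out single libraries gave 18 to 22 called members in E0771 and 9 to 12 in NMuMG. With obese secretome against control it gave 0 in E0771 and 0 to 1 in NMuMG, where the single call was also lost at an adjusted p under 0.01 (0 called), with DESeq2 (0) and with the replicate block (0). Lean against obese gave 18 to 21 in E0771 and 4 to 11 in NMuMG, with 11 without NMuMG obese replicate 1. The differences between the lines ranged from 11 to 15 (lean against control), 0 to 1 (obese against control, 1 without NMuMG control replicate 2), 9 to 13 (lean against obese) and 26 to 29 (control media). Restricting E0771 to members whose mean log2 CPM reached 2 left 11 called of 18 tested, since fewer members were tested. Of the other pathway genes, leaving out single libraries gave 47 to 54 called (lean against control), 0 to 3 (obese against control) and 41 to 47 (lean against obese) in E0771, and 24 to 33, 2 to 6 and 21 to 26 in NMuMG. With all libraries, lean against obese called 47 of 77 in E0771 (61.0%, against 52.7% of all genes). In NMuMG it called 29 of 79 (36.7%, against 35.0%), so every fit without a library fell below that count.

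The residual correlations of same-numbered replicates were -0.0941 to 0.110 for the 9 pairs of E0771 and -0.0285 to 0.0251 for those of NMuMG. For the 18 other pairs of each line they were -0.0906 to 0.109 and -0.0240 to 0.0254. In E0771 the same-numbered pairs of control and obese gave 0.110, 0.0466 and 0.0600, and those of control and lean -0.0941, -0.0132 and -0.0584. With 3 replicates per group these correlations cannot decide whether the numbers pair the samples. With the replicate block, 21, 0 and 20 members were called in E0771 and 12, 0 and 8 in NMuMG (lean against control, obese against control, lean against obese), and 12, 0, 12 and 27 between the lines. Of the pathway genes, 52, 2 and 45 were called with the block in E0771 and 33, 5 and 27 in NMuMG. Depth limits the scarce members, such as Usp18, Irf7 and Mx2, whose calls rest on few counts.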
